A study of Mus musculus with 12 samples.

Results

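The primed and early lineage genes are 10 protein-coding mouse genes, Fgf5, Otx2, Dnmt3b, Pou3f1, Gata4, Gata6, Sox17, T, Lefty1 and Lefty2, which mark embryonic cells as they leave naive pluripotency or enter an early lineage. They were chosen by gene symbol, with no measured value in the rule, from 22556 genes counted in chromatin-associated RNA, and all 10 were found. Every member had counts in each of the 12 libraries, from a lowest count of 5 for Sox17 to a highest of 8099 for Dnmt3b. All 10 passed the filter on low counts in the tests of total counts, and 8 passed it in the tests of parental share.

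The study deleted parts of Xist, the non-coding RNA that silences an X chromosome, and asked how each deletion affects silencing. Its cells are iXist-ChrX, a female mouse embryonic stem cell line of a 129S by Cast cross, so reads over sequence differences can be assigned to a parental strain. Chromatin-associated RNA (ChrRNA), which is rich in nascent and unspliced transcripts, was sequenced from 5 lines without doxycycline (Dox, 0 h) and after 24 h in 1.0 to 1.5 µg/mL Dox. Total counts ranged from 18893447 to 36007145 per library, with a median of 26552191.

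In all 5 lines, WT included, a TetOn promoter stands in place of the Xist promoter on the 129S allele, so Dox switches Xist on from that allele. WT carries no further deletion and has 1 library in each state. XistDelA stands for 3 clones, C1, 2C2 and C11, that lack the A-repeat of Xist, with 1 library per clone and state. The study describes more than 1 form of A-repeat deletion, and the labels do not say which form a clone carries, though the names of the deposited tables mark the deletion in C11 differently from that in C1 and 2C2. XistDelm6A/T1_11C, here 11C, is a single clone that lacks the 5′ m6A region of Xist, with 2 replicates in each state. All cells grew in serum with LIF, a cytokine that sustains pluripotency, on mitomycin-inactivated fibroblast feeders, which the methods say were removed by pre-plating before ChrRNA extraction. Every induced group received Dox, so an effect of Dox itself and an effect of Xist RNA cannot be told apart. The 11C deletion, the history of that clone and any difference in how its libraries were made cannot be told apart either.

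Xist, the induced gene, was low in every library without Dox and high in every library with it. Its level without Dox was between 85.6 and 297.5 RPM (counts per 1000000 total counts of the library) and with Dox between 1267 RPM in 2C2 and 5514 RPM in WT. The 4 libraries of 11C stood apart from the other 8 in genes far from Xist. Rmrp, a non-coding RNA gene named here after its values were seen, lay between 4056 and 7638 RPM in 11C and between 497.7 and 917.7 RPM in the others. The methods call replicates of the ChrRNA experiments biological, while the labels do not say that they came from separate cultures, so p-values measure the spread between these samples.

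Naive embryonic stem cells resemble the epiblast before implantation, and as they exit that state they pass through formative and primed states marked by Otx2, Fgf5, Pou3f1 and Dnmt3b. Gata4, Gata6 and Sox17 encode transcription factors of the primitive endoderm, the extraembryonic layer that forms beside the epiblast, and T (Brachyury) marks the primitive streak and early mesoderm. Lefty1 and Lefty2 are secreted inhibitors of Nodal, a TGF-beta family ligand, and Nodal signalling itself induces them.

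Across the 10 members, Gata4, Gata6 and Sox17 were higher in 11C than in the XistDelA clones in both states, Lefty2 fell with Dox, and Fgf5 differed most between the replicates of 11C. The lines differed in 5 members, Otx2, Gata4, Gata6, Sox17 and Lefty2, by edgeR's quasi-likelihood test at an adjusted p under 0.05, a threshold that 35.2% of the 15826 genes tested passed. Against XistDelA, 11C was higher in 5 members without Dox (Otx2, Gata4, Gata6, Sox17 and T), where 19.8% of 15745 genes passed in either direction. With Dox, 11C was higher in 3 members (Gata4, Gata6 and Sox17), where 16.6% of genes passed. The Dox change over all lines was past the threshold in 1 member, Lefty2, and in 0.929% of all genes. With the 6 pairs of libraries as a term, 4 members passed (Lefty2, Lefty1, Otx2 and Dnmt3b), and so did 16.4% of genes. The replicate numbers of 11C, on which 2 of those pairs rest, may not pair its libraries.

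**Figure D1:**
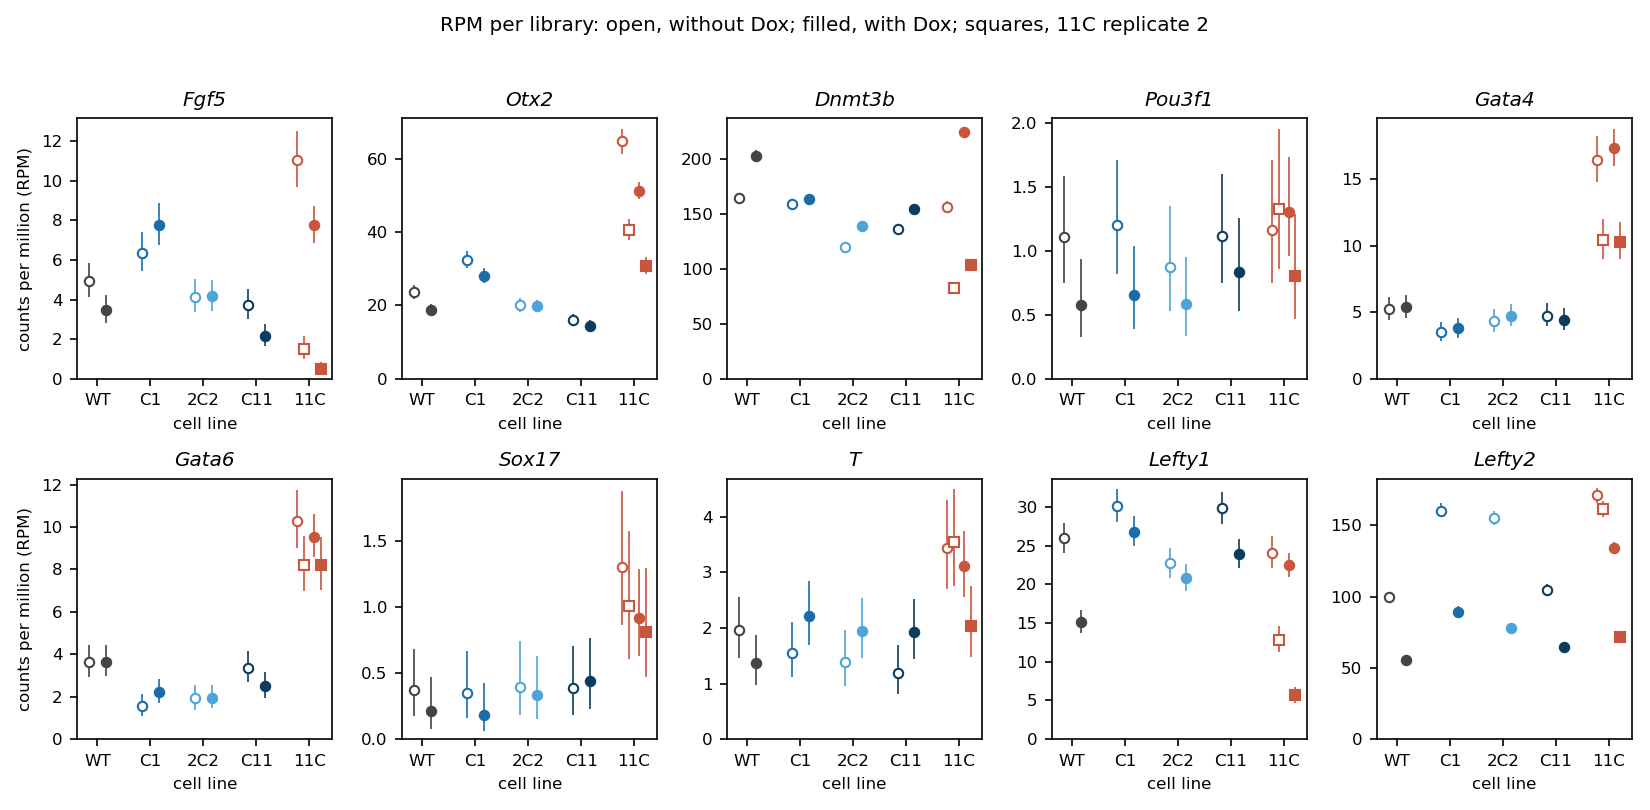
Level of each member in RPM (y axes, linear and starting at 0) in every library, by cell line (x axes). Open symbols are libraries without Dox, filled symbols with Dox, squares 11C replicate 2, and bars 95% Poisson intervals, which cover counting error only. Gata4 in 11C lies between 10.3 and 17.4 RPM and in every other library between 3.50 and 5.397 RPM.

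Levels can be set against each other only per length of gene, since nascent reads spread over introns. On that scale Lefty2 was highest, with a mean of 18.7 RPM per kb of gene over the 12 libraries, followed by Lefty1 at 6.45, Dnmt3b at 3.94 and Otx2 at 3.01 RPM per kb. The other 6 members were far lower. Pou3f1 averaged 0.320 RPM per kb, T 0.265, Fgf5 0.210, Gata4 0.163, Gata6 0.1435 and Sox17 0.0867 RPM per kb. Sox17 still stood at percentile 43.3 of all genes on this scale and Lefty2 at percentile 98.9. Lefty1 and Lefty2 are similar paralogs, so reads could be split between them and the values of each are uncertain to that extent. No member overlapped another gene on its own strand, and Gata6 faces 1010001N08Rik on the opposite strand, which the stranded counting keeps apart.

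Fgf5 encodes a fibroblast growth factor that is a marker of the primed epiblast. Its level in WT was 4.96 RPM without Dox and 3.49 RPM with Dox. In the XistDelA clones without Dox it was 6.37 RPM in C1, 4.14 RPM in 2C2 and 3.72 RPM in C11. With Dox it was 7.785 RPM in C1, 4.18 RPM in 2C2 and 2.15 RPM in C11. The 2 replicates of 11C lay far from each other. Replicate 1 held 11.04 RPM without Dox and 7.75 RPM with Dox. Replicate 2 held 1.48 RPM without Dox and 0.474 RPM with Dox, from 28 and 10 counts. Within 11C, replicate 1 was thus 7.45-fold above replicate 2 without Dox and 16.3-fold above it with Dox, while WT and the XistDelA clones fell between them in both states except for C1 with Dox, which was just above replicate 1.

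Because those replicates differed so widely, they were compared with each other in a fit of all 12 libraries with the 6 pairs of libraries and Dox as terms, a comparison chosen after seeing the data. In this fit 5 members were lower in 11C replicate 2 than in replicate 1 and none was higher, where 44.3% of 15826 genes passed the threshold in either direction. Fgf5 was lower by a log2 fold change of -3.09 (SE 0.31), Lefty1 by -1.20, Dnmt3b by -0.82, and Otx2 and Gata4 by -0.50 each. The median log2 fold change of the 10 members was -0.40, beside -0.0025 over all genes. The comparison was prompted by the values of Fgf5, so it is a description and no independent test of that gene. Its spread comes from the Dox change within pairs, not from repeated cultures.

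Of 13 other primed and formative genes tested, 7 were lower in 11C replicate 2 and none was past the threshold as higher (median -0.57), though Sox3 (0.50), Foxd3 (0.47) and Zic5 (0.11) lay above 0 and are named for that reason. Fgf15, a growth factor, had a log2 fold change of -3.30, Sox11 one of -2.17 and Lef1, a Wnt effector, one of -1.24, with Fgf15 and Sox11 named here after their values were seen. The summed level of this list was 531.7 and 504.7 RPM in replicate 1 without and with Dox and 298 and 229 RPM in replicate 2, so that replicate 1 was above the other 8 libraries (278 to 391 RPM) and replicate 2 with Dox below them. Naive and core pluripotency genes also separated the replicates, with 8 of 14 lower and 4 higher in replicate 2 (median -0.40). Tbx3 (1.21), Prdm14 (0.70), Tfcp2l1 (0.59) and Nr5a2 (0.34) were the higher genes of that list, and Tcl1 (-0.90) and Dppa3 (-0.82) the lowest, all again named after their values were seen. In the same comparison 4 of 14 fibroblast genes were lower and none higher (median -0.58), and 3 of 8 trophoblast genes were higher and 1 lower (median 0.70). These counts stand beside 3736 genes higher and 3272 lower among all 15826. Whether these genes share a cause with Fgf5 was not tested.

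**Figure D2:**
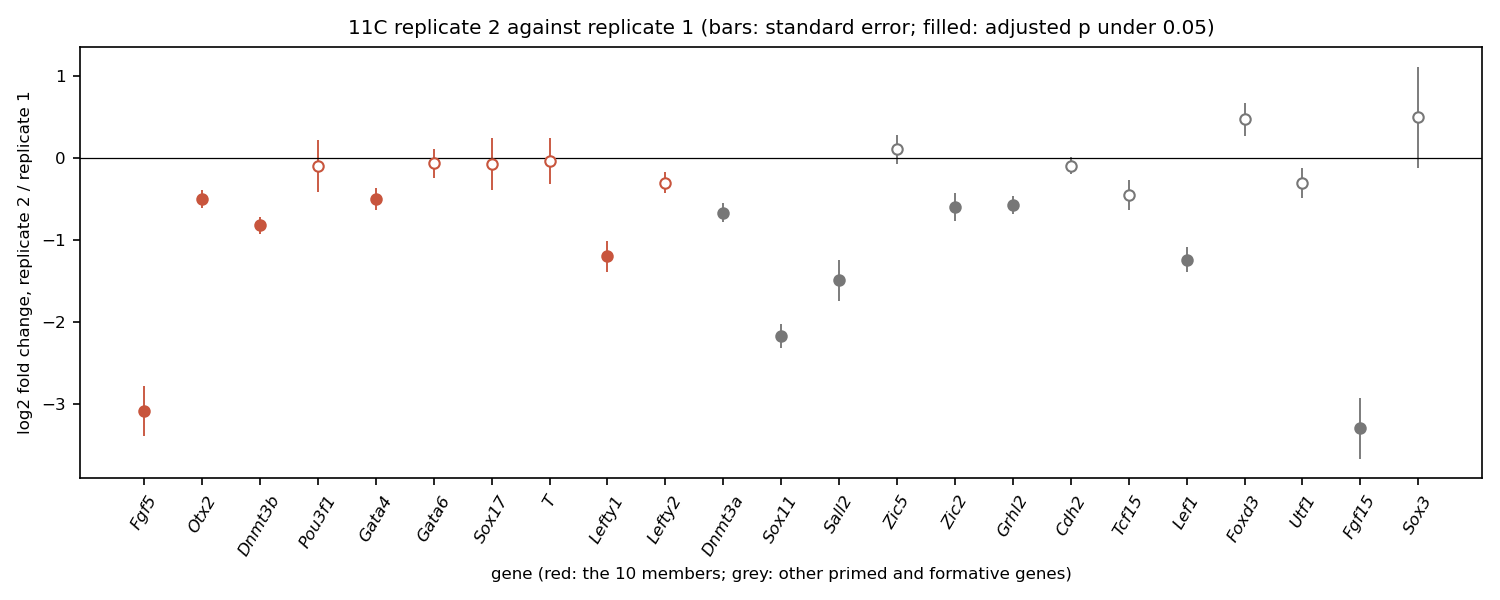
Log2 fold change of 11C replicate 2 over replicate 1 (y axis) for the 10 members in red and the other primed and formative epiblast genes in grey (x axis). Bars are standard errors and filled symbols have an adjusted p under 0.05. Fgf5 at -3.09 and Fgf15 at -3.30 lie lowest.

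For Fgf5 no comparison between groups was past the threshold. Its Dox change over all lines was -0.38 (SE 0.50, edgeR adjusted p = 0.79), lower with Dox in 4 of 6 pairs of libraries. Between lines its adjusted p was 0.757 with edgeR. It passed without 11C replicate 1 (edgeR adjusted p = 0.000102), without 11C replicate 2 (adjusted p = 0.000218) and without all 4 libraries of 11C (adjusted p = 0.00399, chosen after seeing the data). In those fits every line has 1 library per state, so the spread is taken from how pairs depart from a common Dox change and holds no replicates of a line, here and for other members tested between lines in this way. In 11C against XistDelA with Dox its log2 fold change was -0.32 (edgeR adjusted p = 0.828). The value was -3.24 without 11C replicate 1 (edgeR adjusted p = 0.0364), 0.50 without 11C replicate 2 (edgeR adjusted p = 0.534) and 0.23 without C1 (edgeR adjusted p = 0.901), so its direction turned with the library left out.

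The start of Fgf5 is shown as it is the member whose level varied most, 23.3-fold from lowest to highest library, with 10 counts in the lowest. The 300 bases from 250 before to 50 after the annotated start, on the plus strand at chr5:98253934-98254233, RefSeq GRCm38.p6, read 5′ to 3′ as follows, with no capitals because none of the motifs searched here is present.
Fgf5: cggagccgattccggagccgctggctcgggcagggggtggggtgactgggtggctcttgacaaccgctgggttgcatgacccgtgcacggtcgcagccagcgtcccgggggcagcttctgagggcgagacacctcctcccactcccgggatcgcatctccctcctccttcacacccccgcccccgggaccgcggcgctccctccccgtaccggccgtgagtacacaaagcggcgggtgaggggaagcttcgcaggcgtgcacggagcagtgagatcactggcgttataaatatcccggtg
The motifs, searched on both strands, were CTTTGA for TCF/LEF factors, TAATCC for OTX factors, AGATAA for GATA factors and TGTNNATT for FOXH1. Of 32851 mouse promoters of this length, 16.0%, 7.06%, 11.2% and 12.2% held them in that order. Promoter entries were matched for 4 of the 10 members, Fgf5, Otx2, Dnmt3b and T. A match of letters is a description and not a binding site. The single Dnmt3b window also held none of them, and it was rich in G and C at 76.0%, against 68.3% for Fgf5.

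Otx2 encodes a homeodomain factor that drives the move from the naive to the primed state. In WT it was at 23.6 RPM without Dox and 18.8 RPM with Dox. The XistDelA clones held 32.5 RPM in C1, 20.0 RPM in 2C2 and 16.0 RPM in C11 without Dox, and 28.0 RPM, 19.8 RPM and 14.4 RPM in the same order with Dox. In 11C, replicate 1 held 64.7 RPM without Dox and 51.2 RPM with Dox, and replicate 2 held 40.5 RPM and 30.8 RPM. Each state of 11C was above every other library of that state, and across states 11C replicate 2 with Dox overlapped C1 without Dox. Otx2 is 4.49-fold from lowest to highest library.

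Otx2 was among the genes that differed between lines, with a range of 1.50 log2 units between the highest line, 11C, and the lowest, C11 (edgeR adjusted p = 0.000473). Against XistDelA, 11C was higher by 1.08 (SE 0.32, edgeR adjusted p = 0.0397) without Dox and by 0.89 (SE 0.32, edgeR adjusted p = 0.0837) with Dox. The call without Dox was lost without 2C2 (adjusted p = 0.184), without C11 (0.103) and without 11C replicate 1 (0.203). With Dox it was gained with DESeq2 (adjusted p = 0.0461) and without C1 (edgeR adjusted p = 0.0297). The level of Otx2 was lower with Dox in 6 of 6 pairs, though in 2C2 and C11 within the counting interval. Its Dox change over all lines was -0.26 (SE 0.11, edgeR adjusted p = 0.315), and -0.26 with the 6 pairs as a term (edgeR adjusted p = 0.0101). It passed without 11C replicate 1 (-0.23, edgeR adjusted p = 0.0239), without 11C replicate 2 (-0.26, edgeR adjusted p = 0.0163) and without all 4 libraries of 11C (-0.21, edgeR adjusted p = 0.0296), the last chosen after seeing the data.

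Otx2 has 4 annotated starts with a promoter entry, of which start 1 and start 3 are shown because the motifs that they hold differ. At start 1, on the minus strand at chr14:48667595-48667894, the capitals mark the FOXH1 letters. At start 3, on the minus strand at chr14:48665060-48665359, they mark the letters of the OTX and GATA motifs, which overlap each other. Both are RefSeq GRCm38.p6 sequence.
Otx2 start 1: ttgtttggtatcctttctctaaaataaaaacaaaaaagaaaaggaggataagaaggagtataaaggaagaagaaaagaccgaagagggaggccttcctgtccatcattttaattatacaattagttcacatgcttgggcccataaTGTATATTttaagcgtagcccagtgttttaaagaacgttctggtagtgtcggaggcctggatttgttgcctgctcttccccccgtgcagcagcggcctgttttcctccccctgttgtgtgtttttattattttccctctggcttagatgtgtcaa
Otx2 start 3: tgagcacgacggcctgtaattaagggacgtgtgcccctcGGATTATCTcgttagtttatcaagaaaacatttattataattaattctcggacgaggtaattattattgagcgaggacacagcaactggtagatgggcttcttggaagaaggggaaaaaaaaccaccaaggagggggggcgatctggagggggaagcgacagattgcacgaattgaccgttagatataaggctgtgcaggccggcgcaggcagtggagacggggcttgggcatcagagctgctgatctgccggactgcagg
The window of start 2 overlaps that of start 1 and also has 1 FOXH1 match, and that of start 4 has 1 GATA match.

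Dnmt3b, a de novo DNA methyltransferase that is high in formative and primed cells, was the most abundant member by RPM. It lay at 164.7 RPM in WT without Dox and 203 RPM with Dox. The clones without Dox held 159 RPM (C1), 119.8 RPM (2C2) and 136 RPM (C11), and with Dox 164 RPM, 139 RPM and 155 RPM in that order. 11C replicate 1 was at 157 RPM without and 225 RPM with Dox, and replicate 2 at 82.5 RPM and 103.5 RPM. The lowest and the highest level of Dnmt3b were therefore both in 11C, in different replicates. Its level was higher with Dox in 6 of 6 pairs, though in C1 within the counting interval. The Dox change over all lines was 0.25 (SE 0.16, edgeR adjusted p = 0.526), and 0.24 with the 6 pairs as a term (edgeR adjusted p = 0.0118). With 11C left out, an alternative chosen after seeing the data, it was 0.15 (edgeR adjusted p = 0.0328). It was likewise past the threshold without 11C replicate 1 (0.20, edgeR adjusted p = 0.0274) or replicate 2 (0.21, edgeR adjusted p = 0.027). Dnmt3b did not pass the test between lines over all libraries (edgeR adjusted p = 0.444), but did so without 11C replicate 1 (2e-05), without 11C replicate 2 (0.00627) and without all of 11C (0.00117). Against XistDelA without Dox, 11C was lower by a log2 fold change of -0.80 without 11C replicate 1 (edgeR adjusted p = 0.016), while over both replicates it was -0.34 (edgeR adjusted p = 0.391) and without 11C replicate 2 it was 0.01 (edgeR adjusted p = 0.961).

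Pou3f1 (Oct6), a POU factor of the primed epiblast and neural cells, was near the lower limit of detection, with 16 to 47 counts per library. WT held 1.11 RPM without and 0.576 RPM with Dox. The clones held 1.20 RPM (C1), 0.8715 RPM (2C2) and 1.11 RPM (C11) without Dox and 0.655 RPM, 0.586 RPM and 0.837 RPM with Dox. 11C held 1.16 RPM and 1.305 RPM in replicate 1 and 1.32 RPM and 0.8065 RPM in replicate 2, without and with Dox, so the groups overlap. Its level was lower with Dox in 5 of 6 pairs, the exception being 11C replicate 1, and in WT alone did the counting interval of the change leave 0 out. The Dox change over all lines was -0.55 (SE 0.20, edgeR adjusted p = 0.22). Without 11C replicate 1 the Dox change was -0.71 (edgeR adjusted p = 0.0206), and without all 4 libraries of 11C, chosen after seeing the data, it was -0.72 (edgeR adjusted p = 0.0235).

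Gata4, a zinc finger factor of the primitive endoderm and later the heart, stood apart in 11C. WT held 5.22 RPM without and 5.397 RPM with Dox. The XistDelA clones held 3.50 RPM in C1, 4.31 RPM in 2C2 and 4.75 RPM in C11 without Dox, and 3.78 RPM, 4.725 RPM and 4.44 RPM in that order with Dox. 11C replicate 1 held 16.4 RPM without and 17.4 RPM with Dox, and replicate 2 held 10.4 RPM and 10.3 RPM. The ranges of 11C and of the other 8 libraries did not overlap, and the mean of 11C was 3.02-fold that of the others.

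Gata6, the factor that starts the primitive endoderm programme, had the same order of lines as Gata4 without Dox, but a different order of clones with Dox. It lay at 3.63 RPM in WT in both states. In the clones it was 1.55 RPM (C1), 1.92 RPM (2C2) and 3.37 RPM (C11) without Dox, and 2.22 RPM, 1.94 RPM and 2.51 RPM with Dox. 11C held 10.3 RPM and 9.55 RPM in replicate 1 without and with Dox, and 8.20 RPM and 8.21 RPM in replicate 2. Again 11C did not overlap the others, at a ratio of means of 3.49-fold. Across the 12 libraries the log2 levels of Gata4 and Gata6 had a Pearson correlation of 0.955, a description in which the libraries of a line are not independent.

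Sox17, an endoderm factor of the SOX family, was the least abundant member, with 5 to 33 counts per library. WT held 0.370 RPM without and 0.216 RPM with Dox. The clones held 0.350 RPM (C1), 0.392 RPM (2C2) and 0.383 RPM (C11) without Dox, and 0.182 RPM, 0.330 RPM and 0.437 RPM with Dox. 11C held 1.30 RPM and 0.9165 RPM in replicate 1 without and with Dox, and 1.01 RPM and 0.8065 RPM in replicate 2. No library of 11C overlapped the others here either, and the ratio of means was 3.03-fold. In bulk libraries such as these, fewer cells of a type and less RNA per cell cannot be told apart. The higher levels in 11C may therefore stand for more cells with endoderm transcripts or more transcripts in each. Any difference in how the 11C libraries were made, which the labels do not describe, cannot be told apart from these.

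Gata4 was higher in 11C than in XistDelA by 1.56 (SE 0.24, edgeR adjusted p = 0.0025) without Dox and by 1.58 (SE 0.24, edgeR adjusted p = 0.00272) with Dox. For Gata6 the differences were 1.90 (SE 0.30, edgeR adjusted p = 0.00287) and 1.92 (SE 0.29, edgeR adjusted p = 0.00293). For Sox17 they were 1.50 (SE 0.39, edgeR adjusted p = 0.0233) and 1.35 (SE 0.39, edgeR adjusted p = 0.039). Gata4 and Gata6 kept both calls when any clone or 11C replicate was left out. Sox17 lost the call without Dox when C1 (adjusted p = 0.0532), 2C2 (0.121), C11 (0.071) or 11C replicate 1 (0.0731) was left out. With Dox it lost the call when C1 (0.127), 2C2 (0.162), C11 (0.0725), 11C replicate 1 (0.0721) or 11C replicate 2 (0.057) was left out, with DESeq2 (0.0696) and with no filter on low counts (0.0561). The genes called in 11C against XistDelA numbered 3125 without Dox, 539 when 2C2 and 1334 when C11 was left out, and 2613 with Dox, 523 without 2C2, 823 without C11 and 4452 without 11C replicate 2.

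These genes also passed the test between lines, with a range of line means of 1.81 for Gata4 (edgeR adjusted p = 0.000175), 2.17 for Gata6 (edgeR adjusted p = 7.1e-05) and 1.83 for Sox17 (edgeR adjusted p = 0.00413). With 11C left out, chosen after seeing the data, Gata6 differed among the 4 other lines (range 0.92, with C1 and 2C2 lower than WT and C11, edgeR adjusted p = 0.011), whereas Gata4 (edgeR adjusted p = 0.0619) and Sox17 (edgeR adjusted p = 0.605) did not pass. The test between lines called 5568 genes, 9781 without 11C replicate 1 and 10181 without 11C replicate 2. No Dox change of these genes passed. The change over all lines was 0.02 (SE 0.13) for Gata4, -0.03 (SE 0.13, and 0.05 without C11) for Gata6 and -0.42 (SE 0.23, edgeR adjusted p = 0.429) for Sox17.

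**Figure D3:**
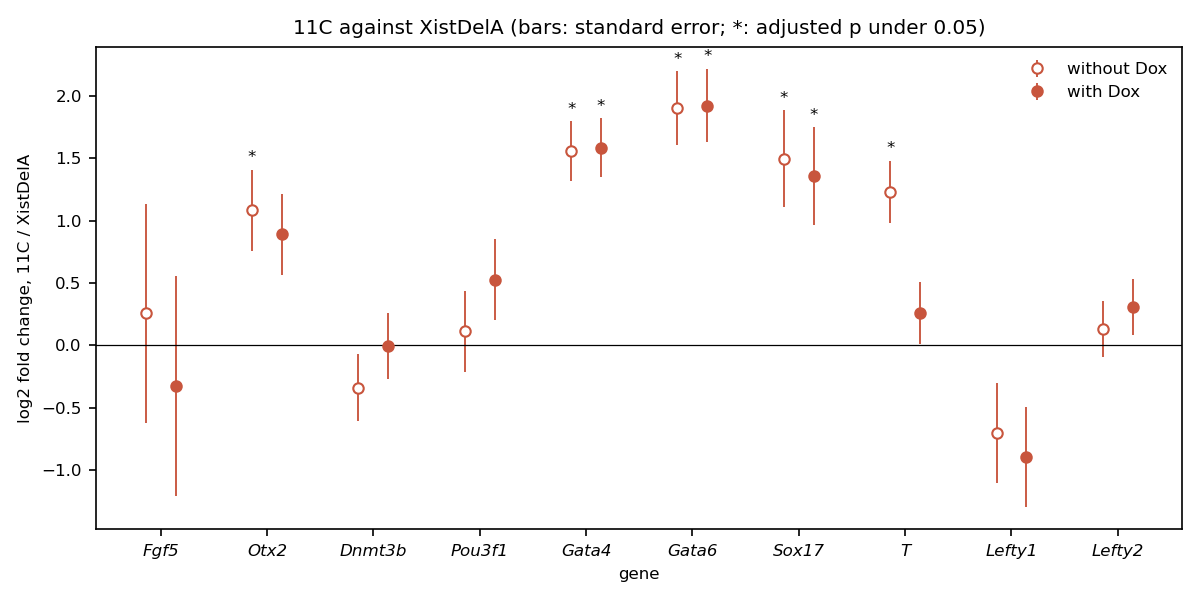
Log2 fold change of 11C over the XistDelA clones (y axis) for each member (x axis), without Dox in open and with Dox in filled circles. Bars are standard errors and asterisks mark an adjusted p under 0.05. Gata4 and Gata6 lie between 1.56 and 1.92 in both states.

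The wider primitive endoderm list moved less evenly. Of 12 of its genes tested, 4 were higher in 11C than in XistDelA in each state and none was lower, with a median of 0.02 without Dox and 0.17 with Dox, beside 0.04 and 0.03 over all genes. Over all genes 19.8% passed without Dox and 16.6% with Dox, in either direction. Col4a2 and Col4a1, basement membrane collagens, were at 148.2 to 178 RPM and 257 to 290.4 RPM in 11C and at 39.25 to 83.3 RPM and 80.8 to 193 RPM elsewhere. Sox7, a further endoderm factor, did not follow, at 0.0949 to 0.582 RPM in 11C and 0.109 to 1.15 RPM in the others, and Foxa2 was at most 0.285 RPM in any library, both named here after their values were seen. The summed level of the list was 1533 to 1953 RPM in 11C and 1058 to 1421 RPM in the other libraries, and Lamc1, at a mean of 457 RPM, made up 32.5% of it. None of its 17 genes was at 0 in every library. Summed trophoblast genes were also higher in 11C (28.8 to 34.8 RPM against 18.9 to 24.4 RPM), as were Nodal pathway genes (1432 to 1539 RPM against 1312 to 1373 RPM). Summed neuroectoderm genes were lower (10.4 to 15.0 RPM against 17.3 to 23.5 RPM). Each of these 2 smaller sums was mainly 1 gene, with Tfap2c at 67.7% of the trophoblast sum and Nes at 70.7% of the neuroectoderm sum.

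Fibroblast markers bear on feeder cells, which are a source of collagen RNA. In this list 14 of 16 genes were tested in 11C against XistDelA. Without Dox 11C was higher in 2 and lower in 4 (median -0.73), and with Dox higher in none and lower in 5 (median -0.77). Of all genes 19.8% passed without Dox and 16.6% with Dox, in either direction, with medians of 0.04 and 0.03. Col1a1 was at 0.285 to 0.778 RPM in 11C and at 1.13 to 2.33 RPM elsewhere, Col1a2 at 1.43 to 2.92 RPM against 3.02 to 6.88 RPM, and Lox at 0.159 to 0.325 RPM against 0.546 to 1.09 RPM. The summed list without and with Dox was 88.9 and 82.2 RPM in WT, 94.9 and 93.3 RPM in C1, 87.7 and 101.6 RPM in 2C2 and 100.3 and 99.8 RPM in C11. In 11C it was 84.7 and 86.1 RPM in replicate 1 and 72.8 and 65.4 RPM in replicate 2. Fbn1 was the most abundant gene, at a mean of 39.55 RPM, and no gene of the list was at 0 in every library. The 2 genes higher in 11C without Dox were Acta2 (2.42, SE 0.55, edgeR adjusted p = 0.0138) and Pdgfrb (1.27, SE 0.38, edgeR adjusted p = 0.0402), named after their values were seen. The part of fibroblast RNA in the levels of Gata4, Gata6 and Sox17 was not tested.

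T, the T-box factor of the primitive streak, was at low levels, with 31 to 112 counts per library. WT held 1.961 RPM without and 1.37 RPM with Dox. In the clones T was at 1.55 RPM (C1), 1.39 RPM (2C2) and 1.19 RPM (C11) without Dox and at 2.22 RPM, 1.94 RPM and 1.93 RPM with Dox. 11C held 3.43 RPM and 3.11 RPM in replicate 1 and 3.55 RPM and 2.04 RPM in replicate 2, without and with Dox. Without Dox both replicates of 11C were above all other libraries, and with Dox replicate 2 fell within the range of the clones.

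In 11C against XistDelA, T was higher by 1.23 (SE 0.25, edgeR adjusted p = 0.00897) without Dox and by 0.26 (SE 0.25, edgeR adjusted p = 0.492) with Dox. The call without Dox was lost without 2C2 (adjusted p = 0.0761) and without C11 (0.0545). The Dox change in the XistDelA clones was 0.53 (SE 0.20, edgeR adjusted p = 0.294), higher in 3 of 3 clones, and was past the threshold with the clone as a block (0.53, SE 0.19, edgeR adjusted p = 0.0366). In 11C it was -0.46 (SE 0.39, edgeR adjusted p = 1), lower in both replicates. T was lower with Dox in WT too (-0.52), and the counting interval left out 0 in C11 and 11C replicate 2 but not in the other 4 pairs. The difference between these changes was -0.97 (SE 0.36, unadjusted p = 0.0202 and adjusted p = 1 by edgeR). A difference in the Dox change of T was thus not shown by this fit, which does not pair the libraries of a clone. Between lines T did not pass (edgeR adjusted p = 0.117), except without 11C replicate 2 (edgeR adjusted p = 0.0422).

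The T promoter is shown for its TCF/LEF letters, since T is a textbook target of Wnt signalling. It lies on the plus strand at chr17:8434173-8434472, RefSeq GRCm38.p6, and the capitals mark the match on the other strand.
T: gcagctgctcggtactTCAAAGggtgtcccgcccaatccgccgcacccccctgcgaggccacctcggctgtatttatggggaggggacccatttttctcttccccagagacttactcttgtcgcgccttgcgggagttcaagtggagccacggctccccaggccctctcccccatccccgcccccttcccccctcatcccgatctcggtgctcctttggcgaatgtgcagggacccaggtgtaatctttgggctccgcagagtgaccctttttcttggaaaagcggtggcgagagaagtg

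Around T, 9 of 15 mesoderm and primitive streak genes were tested. None passed in 11C against XistDelA in either state or with Dox over all lines, and 3 differed between lines, Wnt3, Eomes and Axin2. Over all genes 35.2% passed between lines, 0.929% with Dox, and 19.8% and 16.6% in 11C against XistDelA without and with Dox. Wnt3 had the widest range between lines of the 3 (1.42 log2 units). In 11C against XistDelA it was at -0.79 without Dox and -1.07 with Dox, not past the threshold in either state. Eomes, a T-box factor of streak and endoderm, was at 4.11 to 7.62 RPM in 11C and 2.195 to 4.835 RPM elsewhere, with overlap. Axin2, a Wnt feedback gene, was at 8.26 to 12.5 RPM in 11C and 5.18 to 9.82 RPM elsewhere, and made up 50.1% of the summed list. Of 4 neuroectoderm genes tested, Pax6 differed between lines (range 2.10 log2 units), at 1.42 to 2.22 RPM in 11C and 3.42 to 7.86 RPM elsewhere. None of the 4 passed the Dox test over all lines. Of 3 tested in 11C against XistDelA, 1 was lower without Dox and 2 with Dox. Sox1 was at 0 in every library. Of 8 trophoblast genes tested, none passed the Dox test over all lines and 5 differed between lines. 11C was higher than XistDelA in 2 and lower in none without Dox (median 0.71), and higher in none and lower in 1 with Dox (median 0.92). Among the 5 that passed between lines, Plac1, Gata3 and Krt7 had the widest ranges, and Tpbpa was at 0 in every library.

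Lefty2 was the member past the threshold in the Dox test over all lines. In WT it was at 99.5 RPM without and 55.6 RPM with Dox. In the clones it was at 160.3 RPM and 89.5 RPM in C1, 155 RPM and 77.7 RPM in 2C2, and 105 RPM and 64.9 RPM in C11, without and with Dox. In 11C it was at 171 RPM and 134 RPM in replicate 1 and 161 RPM and 71.4 RPM in replicate 2. The level with Dox was below that without Dox in 6 of 6 pairs, each by more than its counting interval, although the levels of the 2 states overlapped across lines because of 11C replicate 1 with Dox. The change within a pair ran from -1.17 in 11C replicate 2 to -0.35 in 11C replicate 1, with WT and C1 at -0.84, 2C2 at -0.9987 and C11 at -0.69.

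Over all lines Lefty2 fell by 0.82 on the log2 scale (SE 0.10, edgeR adjusted p = 0.0111) among 147 genes called, 58 higher and 89 lower. DESeq2 called 621 genes, Lefty2 included. The Lefty2 call was lost without WT (edgeR adjusted p = 0.0754), C1 (0.0652) or 2C2 (0.0597), with changes of -0.81, -0.82 and -0.78, and was kept without C11 or either 11C replicate. Those left-out libraries moved the count of genes to 4 without WT, 7 without C1, 3 without 2C2, 23 without C11, 2920 without 11C replicate 1 and 2977 without 11C replicate 2, and the cause was not tested. Without the 4 libraries of 11C, an alternative chosen after seeing the data, 4037 genes were called and 5 members, Lefty2, Lefty1, Otx2, Pou3f1 and Dnmt3b.

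**Figure D4:**
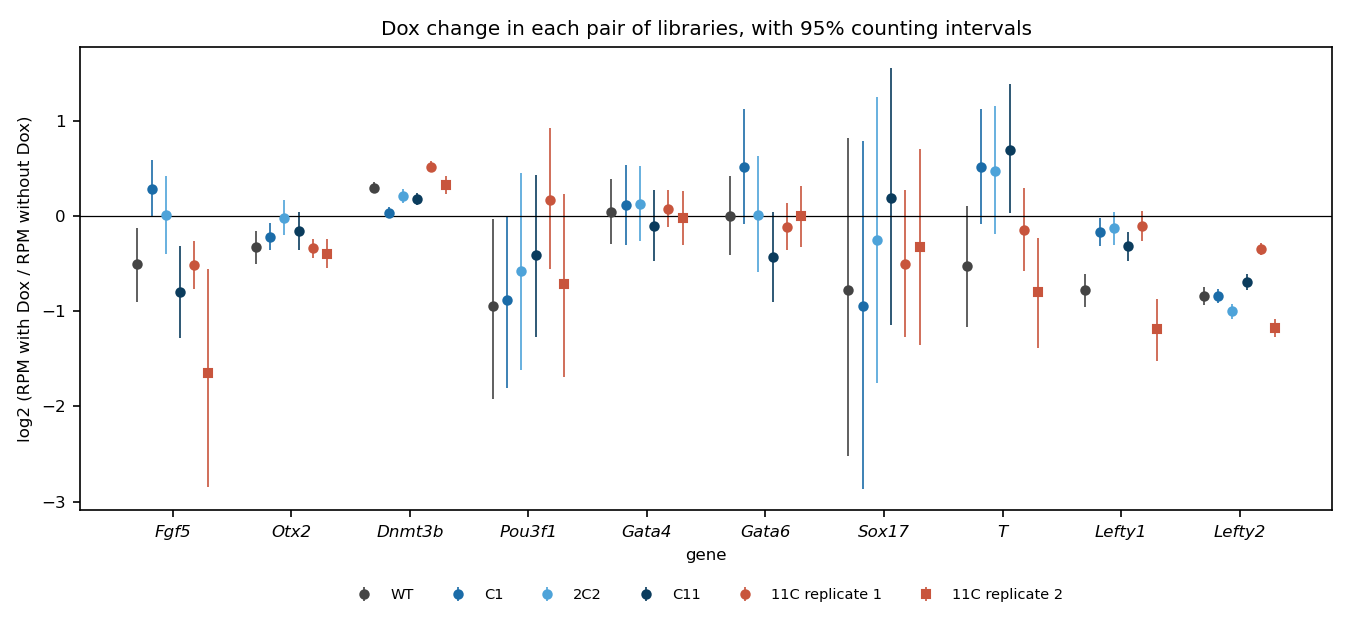
Log2 ratio of RPM with Dox to RPM without Dox (y axis) for each member (x axis) in each of 6 pairs of libraries, coloured by line, with 11C replicate 2 as squares. Bars are 95% counting intervals. For Lefty2 every pair lies between -1.17 and -0.35, below 0.

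Within the XistDelA clones alone the Dox change of Lefty2 was -0.88 (SE 0.18, edgeR adjusted p = 0.172), and 0 of 10 members and 0.0202% of 14866 genes passed. In that test 2162 genes had an unadjusted p under 0.05, and DESeq2 called 408 genes and 1 member, Lefty2 (adjusted p = 0.00136). With the clone as a block 4410 genes passed (29.7%) and 3 members, Lefty2 at -0.87 (SE 0.06, edgeR adjusted p = 4.73e-12), Lefty1 at -0.23 (SE 0.07, edgeR adjusted p = 0.0161) and T. Without 2C2 the 3 genes called without the block became 0. In 11C alone the Dox change of Lefty2 was -0.72 (SE 0.27, edgeR adjusted p = 1), and 0% of 15140 genes and 0 members passed with edgeR, with 173 genes at an unadjusted p under 0.05 and 3 genes called by DESeq2. Without 11C replicate 1 or replicate 2, edgeR called 1 gene in a joint fit with the XistDelA libraries, whose spread the lone pair of 11C is assumed to share. The Dox changes of 11C and XistDelA differed in 0% of 15745 genes with edgeR and in 0 members, with 233 genes at an unadjusted p under 0.05 and 2 genes called by DESeq2. For Lefty2 that difference was 0.17 (SE 0.32, edgeR adjusted p = 1), and -0.20 without 11C replicate 1. In none of the other lists did a gene pass in these 3 tests with edgeR without blocks. The lists were not counted in the fits with blocks, so a Dox change of their genes is not excluded.

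Lefty1 was lower with Dox in each of the 6 pairs, though in 2C2 and 11C replicate 1 within the counting interval. It went from 26.0 to 15.15 RPM in WT, 30.1 to 26.85 RPM in C1, 22.75 to 20.8 RPM in 2C2 and 29.8 to 23.95 RPM in C11. In 11C it went from 24.1 to 22.5 RPM in replicate 1 and from 12.9 to 5.645 RPM in replicate 2, whose libraries were the lowest in each state. Over all lines the change was -0.39 (SE 0.24, edgeR adjusted p = 0.491), and -0.43 with the 6 pairs as a term (edgeR adjusted p = 0.00967). It passed without 11C replicate 1 (-0.47, edgeR adjusted p = 0.0127), without 11C replicate 2 (-0.34, edgeR adjusted p = 0.0169) and without all of 11C (-0.37, edgeR adjusted p = 0.0104, chosen after seeing the data). Against XistDelA, Lefty1 in 11C was at -0.70 without Dox (edgeR adjusted p = 0.233) and -0.89 with Dox (edgeR adjusted p = 0.147). Without 11C replicate 1 it passed, at -1.15 without Dox (edgeR adjusted p = 0.0125) and -2.02 with Dox (edgeR adjusted p = 0.00339). The lines differed in Lefty1 when 11C replicate 1 (6.89e-05), 11C replicate 2 (0.0111) or all of 11C (0.0218) was left out, and not otherwise (edgeR adjusted p = 0.208). In Lefty2 they differed by up to 0.73 log2 units (edgeR adjusted p = 0.0168), WT lowest and 11C highest, a call that was lost without WT (adjusted p = 0.119).

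In the Nodal pathway list 18 of 20 genes were tested, and 1 changed with Dox over all lines. Smad7, an intracellular inhibitor of TGF-beta signals, rose by 0.51 (SE 0.07, edgeR adjusted p = 0.0151) and was higher with Dox in every pair, from 92.3 to 131 RPM in WT and from 142 to 245 RPM in 11C replicate 1 among them. The median Dox change of the list was -0.0041, beside 0.01 over all genes. Nodal itself was at 8.11 to 17.2 RPM and Tdgf1, the Nodal co-receptor, at 118 to 251.5 RPM across the 12 libraries, both named after their values were seen. Between lines 8 of the 18 differed, where 35.2% of all genes passed. 11C was above XistDelA in 4 and below it in 1 in each state, where 19.8% of all genes passed without Dox and 16.6% with Dox. The median of the list was -0.24 without Dox and -0.15 with Dox, beside 0.04 and 0.03 over all genes. Pcsk6, a protease that cleaves Nodal precursors, was at 194 to 309 RPM in 11C and 113 to 148 RPM elsewhere, Smad3 at 68.3 to 107 RPM and 30.1 to 51.5 RPM, and Gdf3, a ligand, at 13.6 to 20.0 RPM and 22.7 to 43.8 RPM. Gdf1 was at 0 in every library.

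In the FGF and ERK feedback list 0 of 12 genes passed the Dox test over all lines with edgeR, where 0.929% of all genes did. The lines differed in 3 of the 12, where 35.2% of all genes passed. Egr1, an immediate early gene, was at 0.8065 to 2.78 RPM in 11C and 5.325 to 16.0 RPM elsewhere, Spred1 at 82.1 to 161 RPM and 186 to 328 RPM, and Etv5 at 323 to 481 RPM and 187 to 291 RPM. In the naive and core pluripotency list 1 of 14 genes, Klf2, changed with Dox, at -0.42 (SE 0.08, edgeR adjusted p = 0.0472), and in the primitive endoderm list 1 of 12, Cubn, at -0.49 (SE 0.10, edgeR adjusted p = 0.0472). Between lines 3 naive genes differed, of which Klf4 was at 30.7 to 43.45 RPM in 11C and 66.3 to 98.6 RPM elsewhere, and Nanog at 40.2 to 74.5 RPM against 69.5 to 93.7 RPM. Zfp42, the most abundant of that list, was at 442 to 818 RPM and 621 to 912 RPM, and Sox2, whose span lies within Sox2ot, was listed at 0 in every library. Of 13 other primed and formative genes none passed the Dox test over all lines and 5 passed the test between lines, beside 0.929% and 35.2% of all genes. Among these Utf1 was at 7.83 to 15.1 RPM in 11C and 3.71 to 5.94 RPM elsewhere and Cdh2 at 35.5 to 56.0 RPM and 81.0 to 112 RPM.

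The genes most like a member in their pattern were taken from 12283 genes by Pearson correlation of log2 RPM over the 12 libraries, which share lines and Dox states. Gata4 was most like Leng8 (0.985), Scube2 (0.982) and Acp6 (0.980), and Gata6 most like Rnf32, Spg11 and Nek6 (0.9635 to 0.973). Otx2 was most like Alk, Ttc21a and Flt4 (0.965 to 0.974), and Dnmt3b most like Abl2, Stk4 and Crmp1 (0.9502 to 0.9535). The nearest genes to Fgf5 were Pla2g1b, Sgip1 and Mfsd2a (0.942 to 0.964), and to T they were Egln1, Fam19a5 and Bbc3 (0.920 to 0.925). Lefty1 was most like Vps33a, Naa10 and Gpm6b (0.938 to 0.9497), none of them in the Nodal list. Lefty2 was most like Tdgf1 (0.907), followed by Mt1 (0.902) and Cstb (0.899). Among members the correlation of Fgf5 with Lefty1 was 0.842, and that of Lefty1 with Lefty2 was 0.321.

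Parental shares, as 129S counts over 129S plus Cast counts, were taken on 7 chromosomes that hold members and whose median gene lay between 0.512 and 0.536. Pooled over all libraries, T had a 129S share of 0.0914 (35 of 383 counts, 95% Wilson interval 0.0664 to 0.124), far below any other member, so nearly all T reads with a strain assignment were Cast. By line the share of T was 0.185 in WT, 0.103 in C1, 0.143 in 2C2, 0.0952 in C11 and 0.0412 in 11C, where the interval of 11C (0.0201 to 0.0825) lies below that of WT (0.104 to 0.308) and overlaps those of the clones. The WT value rests on its library without Dox (0.296, 8 of 27 counts), since the library with Dox held 0.0741 (2 of 27 counts, interval 0.0206 to 0.234), which overlaps 11C. The test between lines did not pass for T (edgeR adjusted p = 0.232). Otx2 leaned to Cast as well, with a share of 0.3085 (0.287 to 0.331), and Dnmt3b (0.442) and Fgf5 (0.436) did so to a lesser degree. Gata4 (0.553), Gata6 (0.537) and Lefty1 (0.498) were close to their chromosomes. Lefty2 leaned to 129S with a share of 0.640 (0.634 to 0.646), although Lefty1 lies close to it on chromosome 1. Pou3f1 and Sox17 had 23 and 56 such counts in all, too few for a test.

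**Figure D5:**
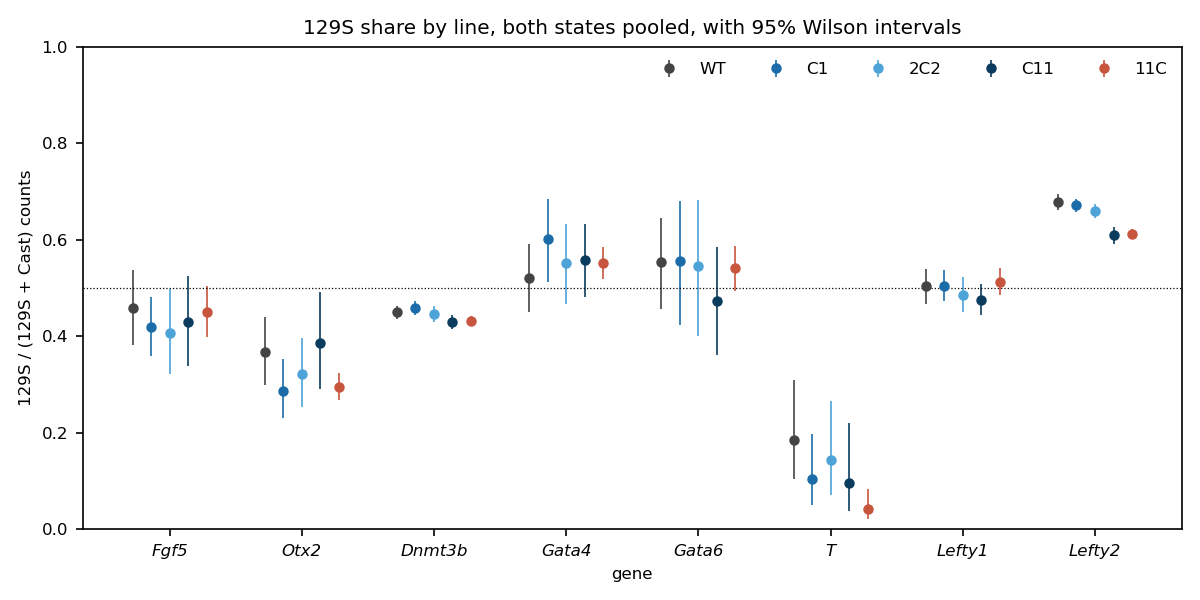
Share of 129S in the strain-assigned counts (y axis, 0 to 1) of the 8 members with enough counts (x axis), by line, with both states pooled. Bars are 95% Wilson intervals, which cover counting error only, and the dotted line marks 0.5. T lies lowest, at 0.0412 to 0.185, and Lefty2 highest, at 0.609 to 0.679.

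The Dox change in share was tested in 8 members: 0 of 8 members passed, where 73 of 13549 genes (0.539%) did with edgeR. An unadjusted p under 0.05 was held by 2 of the 8, Lefty1 and Lefty2, and by 1037 of the 13549 genes. The genes called numbered 11 without WT, 11 without C11 and 151 without 11C replicate 2. Lefty1 moved by -0.32 on the log2 scale of 129S to Cast (SE 0.10, edgeR adjusted p = 0.29). The 129S share was lower with Dox in 6 of 6 pairs for Lefty1, by changes of -0.1065 to -0.0204, and in 6 of 6 pairs for Lefty2, by changes of -0.0288 to -0.0063. Between lines 1 of 8 members differed, Lefty2 (edgeR adjusted p = 5.65e-05), where 14.1% of genes passed. Its share was 0.679 in WT, 0.672 in C1 and 0.660 in 2C2, and 0.609 in C11 and 0.612 in 11C, with no overlap of the Wilson intervals between these sets. Without 11C replicate 1 a further member, Dnmt3b, passed (edgeR adjusted p = 0.000151). On chromosome 1 of C11 the 129S counts were nearly lost a short way beyond Lefty1, with a share of 0.0136 for Nvl against 0.601 in the other lines, while Lefty2 and Lefty1 (0.476 in C11) kept both strains. Nvl was chosen after its values were seen. Whether that loss and the lower Lefty2 share of C11 are linked was not tested.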

How the data were processed

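Chromatin-associated RNA was sequenced from 12 libraries of 5 lines, before Dox and after it had been given for 24 h. The deposited values are raw counts of fragments per gene that the authors made over whole transcripts, introns included, for all reads and for reads assigned to each parental strain. The submitters' notes and file headers name STAR 2.4.2a, Bowtie2 2.3.2, SAMtools, bedtools, edgeR and featureCounts 1.5.2. Genome 2 of the allelic counts was taken as 129S, the strain with the inducible Xist. It held more of the allelic Xist counts, summed over the 12 libraries, than the other genome. Libraries held 18893447 to 36007145 counts, so Sox17 rests on as few as 5 counts. The members and lists were chosen with earlier results of these data known.

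Total counts were tested with edgeR 4.0.16 (limma 3.58.1, R 4.3.3) by quasi-likelihood F tests, with TMM scaling, genes kept by filterByExpr at a minimum count of 10, and Benjamini-Hochberg adjustment over all genes tested at 0.05. The Dox change over all lines had the line as a term, and the difference between lines had Dox as a term. The Dox changes in XistDelA and in 11C were tested within 6 and 4 libraries, and 11C against XistDelA and the difference of their Dox changes within 10, so these comparisons share libraries. Allelic counts were tested with edgeR as paired 129S and Cast columns with a library term, where a gene averaged 10 or more allelic counts. The fits were tested on simulated data. RPM divides counts by the total counts of a library (Python 3.11.15, pandas 2.3.3, numpy 2.4.6, scipy 1.17.1). Poisson and Wilson intervals at 95% cover counting error. Where a line has 1 library per state, as WT does, its spread is assumed to be that of the other lines.

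Alternatives were DESeq2 1.42.0, RLE scaling, no filter on low counts, replicate blocks, leaving out each replicate, TMM library sizes for RPM, shares rescaled to the autosomal median and an allelic minimum of 50. Leaving out the 4 libraries of 11C and the comparison of its replicates were chosen after seeing the data. XistDelA libraries of the same clone are the same cell line. After the group means were taken off, libraries of a clone correlated across 14866 genes at 0.699 (C1), 0.4875 (2C2) and 0.627 (C11), and the clone block is given where it changes a result.

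Genes named from each list are up to 3 that passed the test between lines with the largest range and up to 3 that passed the Dox test over all lines with the largest change. The genes most like a member are the 3 with the highest correlation among genes averaging 50 or more counts. Lists covered other primed and formative epiblast, Nodal pathway, FGF and ERK feedback, primitive endoderm, mesoderm, neuroectoderm, naive pluripotency, fibroblast and trophoblast genes.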

Additional observations from a re-analysis of the deposited data

Results flagged for a closer look

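The Dox change of T differed in direction between 11C and the XistDelA clones. T was higher with Dox in 3 of 3 clones and lower in both replicates of 11C, with 0 outside the counting interval in C11 and 11C replicate 2 alone, and the difference between the changes was -0.97 on the log2 scale. It was tested as an interaction with edgeR, without pairing the libraries (unadjusted p = 0.0202, adjusted p = 1). It did not pass the correction over all genes in that fit, and the cause was not tested.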

How the results depend on the processing

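Of the values for single members with a test, 649 kept direction and side of the threshold under an alternative, 36 newly passed, 23 no longer passed and 37 changed direction. Of the counts of genes or members, 107 stayed within 1.5 times the reported count and 49 did not. Of the mean RPM values 58 moved by less than the replicate spread and 2 did not, and of the shares 47 and 10. A share of Pou3f1 in 3 groups could not be given, since a library there had no allelic counts. With DESeq2 the Dox change was past the threshold in 621 genes over all lines, 408 genes and 1 member in XistDelA and 3 genes in 11C, and differed between 11C and XistDelA in 2. Without a filter on low counts 11C gave 2 genes, and so did the joint fit of 10 libraries. Replicate blocks gave 2588 genes and 4 members over all lines (6 pairs; Lefty2 -0.83, Lefty1 -0.43, Otx2 -0.26 and Dnmt3b 0.24), 4410 genes and 3 members in XistDelA (clone), 237 genes and 1 member, Lefty2, in 11C (number) and 117 genes for the difference of the changes (5 pairs). The labels do not say that the number of 11C pairs its libraries. After the group means were taken off, libraries with the same number correlated at 0.739 and those with different numbers at -0.739. These values are equal in size because each state holds 2 libraries. With Dox alone as a term 4 genes and 0 members passed. Without the 4 libraries of 11C 4037 genes and 5 members did. For the allelic Dox change a mean of at least 50 allelic counts gave 16 genes and the allele-by-pair block 185. The Dox change of T over all lines was -0.0072 with DESeq2, -0.0091 with RLE scaling, -0.0156 with the 6-pair block and -0.0553 with Dox alone. The difference of the Dox changes of Gata6 was -0.0163 with the 5-pair block.

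Leaving out each library or replicate gave 3 to 2977 genes and 0 to 5 members for the Dox change over all lines, 0 to 2 genes in XistDelA and 1 to 1 in 11C. It gave 4399 to 10181 genes and 4 to 9 members between lines, 539 to 3844 genes and 2 to 5 members for 11C against XistDelA without Dox and 523 to 4452 genes with Dox. The allelic Dox change gave 11 to 151 genes and the allelic difference between lines 1 to 2 members. Log2 values that changed direction ranged as follows. Dox over all lines: T -0.12 to 0.12 and Gata6 -0.12 to 0.048. Dox in XistDelA: Gata4 -0.0212 to 0.0822, Fgf5 -0.35 to 0.15 and Gata6 -0.29 to 0.22. Dox in 11C: Gata6 -0.19 to 0.0829, Pou3f1 -0.63 to 0.0896 and Gata4 -0.0006 to 0.0639. 11C against XistDelA without Dox: Fgf5 -1.73 to 1.05, Dnmt3b -0.80 to 0.0134, Pou3f1 -0.0447 to 0.26 and Lefty2 -0.035 to 0.23. With Dox: Fgf5 -3.24 to 0.50, Dnmt3b -0.50 to 0.35 and Lefty2 -0.0584 to 0.58. Difference of the Dox changes: Gata4 -0.0345 to 0.0566, Gata6 -0.26 to 0.23, Sox17 -0.37 to 0.16, Lefty1 -0.87 to 0.0561 and Lefty2 -0.20 to 0.46. Allelic Dox change: Gata4 -0.33 to 0.065 and Otx2 -0.30 to 0.005. The cause of these changes was not tested. Depth limits Sox17, Pou3f1 and T most, with 5 to 112 counts per library, and Fgf5 had as few as 10 counts, in 11C replicate 2 with Dox.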
